A study of Canis lupus familiaris with 10 samples.

Results

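The canine microRNAs (miRNAs) with high miRBase numbers are described here, taken as every listed name of the form cfa-miR- with a number of 1800 or more, whatever its suffix. They made up 47 of the 320 miRNAs listed, and the other 273 serve as the comparison. Of the 47, 10 had numbers from 1800 to under 2000, 7 from 2000 to under 8000 and 30 of 8000 or more. Their abundance, their detection and their difference between canine diffuse large B-cell lymphoma (DLBCL) and healthy lymph node were measured by small RNA sequencing of fresh-frozen nodes, with 1 library per dog. The DLBCL group held 6 libraries (DLBCL1 to DLBCL6) from canine patients of various breeds and both sexes, whose peripheral nodes were biopsied surgically under anesthesia. The healthy group held 4 libraries (Healthy2 to Healthy5) from purpose-bred young female hound crosses that were euthanized in surgical laboratory courses. Whether their nodes were taken before or after death is not given in the sources used here. Origin followed the diagnosis, breed and sex differed with it, and their contributions cannot be told apart. The ages of the patients are not given in the sources used here.

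A miRNA is cut from a hairpin precursor by the nucleases DROSHA and DICER1, loaded onto an Argonaute protein, and guides it to messenger RNAs that are then repressed. miRBase numbers new families roughly in order of submission, so the lowest numbers include the deeply conserved families and the high numbers are late entries. Many late entries come from deep sequencing of 1 species and have few studies or none on their targets. The number says nothing of function, and the 47 share neither a target nor a pathway.

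The DLBCL libraries held 10686441 to 25784861 reads counted on miRNAs, and the healthy ones 30432969 to 34709421. The summed CPM of 5 lymphoid miRNAs (miR-150, miR-155, miR-142, miR-181a and miR-146a) was 13113 to 28370 in DLBCL and 22833 to 41029 in healthy nodes. Of the 5, 2 were lower in DLBCL in the test described below. CPM is the count per 1000000 reads, with each library's total adjusted by edgeR's TMM factor. The sum of 4 red blood cell miRNAs (miR-451, miR-144, miR-486 and miR-486-3p) was 5740 to 48886 CPM in DLBCL and 873 to 1278 CPM in healthy nodes, with 3 of the 4 higher. In a mixed tissue, fewer cells of a type and less RNA per cell cannot be told apart. The libraries also differed in base quality. By the study's read statistics, DLBCL1, DLBCL2, DLBCL3 and DLBCL5 formed a group with a higher share of bases at Q30, and DLBCL4, DLBCL6 and all healthy libraries a lower one.

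The high-numbered miRNAs were scarce. Of all reads counted on miRNAs, they held 0.143% ± 0.0638 (SD, n = 6) for DLBCL, against 0.0371% ± 0.00786 (SD, n = 4) for healthy nodes. The share ran from 0.0741% in DLBCL5 to 0.240% in DLBCL3 and from 0.0264% to 0.0430% in healthy nodes, so the groups did not overlap. Most of these reads fell on 1 pair, since miR-1839 and miR-8884 held 85.2% ± 5.53 (SD, n = 6) of them in the DLBCL libraries, against 75.8% ± 1.37 (SD, n = 4) in the healthy ones. The denominator weighs on the comparison because miR-148a takes a larger share of the healthy libraries. With miR-148a left out of the total, the shares were 0.209% in DLBCL and 0.0957% in healthy nodes. Without miR-1839, they were 0.0587% and 0.0252%.

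Only miR-1839 and miR-8884 averaged at least 100 CPM over the 10 libraries, and 5 of the 47 averaged at least 10 CPM, the other 3 being miR-7180, miR-1844 and miR-8859a. At the other end, 24 of the 47 averaged under 1 CPM, against 64 of the other 273 miRNAs. In the ranking of all 320 by mean TPM, miR-1839 stood at rank 63, miR-8884 at 83, miR-7180 at 127, miR-1844 at 139 and miR-8859a at 141, and the other 42 ranked below the median. All miRNAs are of similar length, so these levels are compared per read without a length correction, although the ligation and amplification of a library favour some sequences over others.

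**Figure D1:**
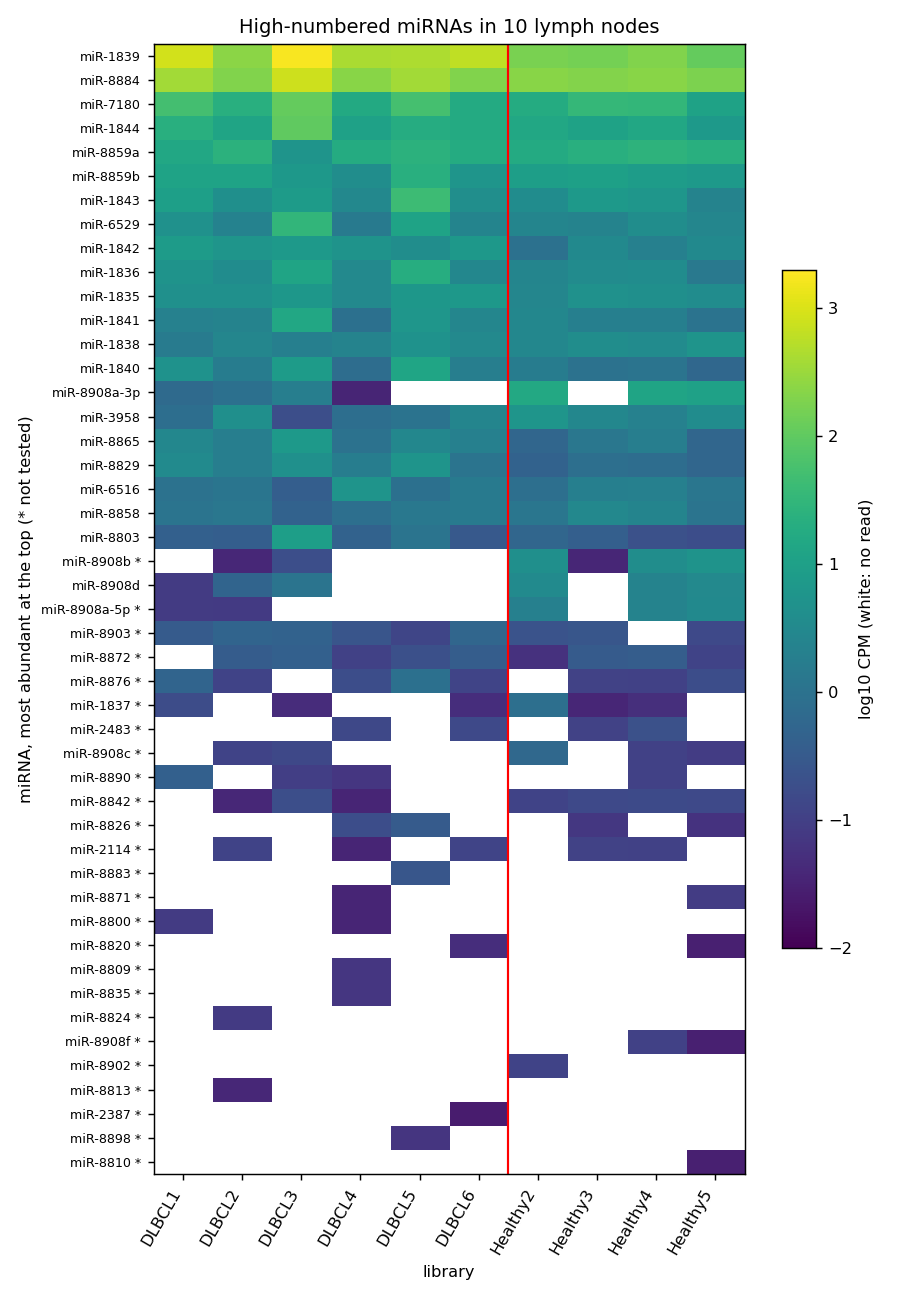
Heat map of the 47 high-numbered miRNAs (rows, by mean TPM) in the 10 libraries (columns), coloured by log10 CPM, with white for no read and an asterisk for the 25 miRNAs that did not pass the low count filter. The red line parts the 6 DLBCL from the 4 healthy libraries, and a block of 20 rows has a read in every library.

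Detection was patchy. At least 1 read was found in every library for 20 of the 47 (42.6%), against 204 of the other 273 (74.7%). For 9 of the 47 the reads came from a single library. A single DLBCL library showed 26 to 33 of them, and a single healthy library 29 to 34. By number, 9 of the 10 miRNAs under 2000 had a read in every library, as did 4 of the 7 from 2000 to under 8000 and 7 of the 30 of 8000 or more.

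Detection in 1 group alone rested on few reads. Any read was seen in DLBCL, over 6 libraries, for 44 miRNAs and in healthy nodes, over 4, for 39. The unequal numbers of libraries gave DLBCL more chances of a stray read. The 8 seen only in DLBCL were miR-2387, miR-8800, miR-8809, miR-8813, miR-8824, miR-8835, miR-8883 and miR-8898, and none had more than 4 reads in a library. The 3 seen only in healthy nodes, miR-8810, miR-8902 and miR-8908f, had at most 2. A count of 0 leaves room for 3 reads, which is 0.281 TPM in DLBCL1, the shallowest library. Such limits cover counting error only, because reads copied by PCR are not independent molecules. Applied to all 10 libraries, 0.281 TPM was reached in at least 1 DLBCL library by 28 miRNAs and in at least 1 healthy library by 27, and in every library by 17. At 10 or more reads the counts were 25, 26 and 16. The difference between 44 and 39 was thus not present at either of these limits.

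To find differences between the conditions, the quasi-likelihood test of edgeR was run on the whole table, and p-values were adjusted by Benjamini-Hochberg over the 247 miRNAs that its filter on low counts left. A miRNA counted as differentially expressed (DEM) at an adjusted p under 0.05 together with a change of more than 2-fold. The change is given as log2FC, the base-2 logarithm of DLBCL over healthy, with its standard error (SE). Of the 47 high-numbered miRNAs, 22 passed the filter, and 25 were too sparse to be tested. Of the 22, 1 was a DEM, miR-1839, which was higher in DLBCL. The background was 14 DEMs among the 247 (5.67%), 9 higher (3.64%) and 5 lower (2.02%), so a single call in 22 (4.55%) is near it. At an unadjusted p under 0.05, 7 of the 22 passed, 6 higher and 1 lower, and over all miRNAs tested the share was 26.7%, 17.4% higher and 9.31% lower. Several other settings gave more calls, in the whole table and among the high-numbered miRNAs alike. DESeq2 called 6 of the 27 it tested (17.2% of all) and edgeR within the lower Q30 group 5 of 25 (17.8%). Limma-voom called 3 of 22 (18.6%). With edgeR, 3 of 22 were called when scaled to total miRNA reads (9.31%) and 3 of 47 without the filter (5.31%). Names of the miR-8908 family, which could share reads, are counted singly here. They were miR-8908a-5p and miR-8908b with DESeq2 and without the filter, and all but miR-1839 in the lower Q30 group.

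The direction of the estimates was uneven. A positive log2FC was found for 16 of the 22, against 55.5% of all 247, and one over 1 for 11, against 27.1%. A value under -1 was found for 3, against 18.2%. The median log2FC was 1.12 for the 22 and 0.13 for all miRNAs tested, and by number it was 1.34 for the 9 tested under 2000, 0.57 for the 4 from 2000 to under 8000 and 0.23 for the 9 of 8000 or more. These positive values depended on which DLBCL libraries were used. Within the lower Q30 group, with DLBCL4 and DLBCL6 against the 4 healthy libraries, 10 of the 22 were positive and the median was -0.04, while 48.3% of the other miRNAs were positive and their median was -0.03. Without DLBCL3 the median was 0.49, with 16 positive. Scaled to total miRNA reads, 18 were positive, as were 80.0% of the other miRNAs, because that scaling moved the median of all miRNAs tested to 0.82.

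**Figure D2:**
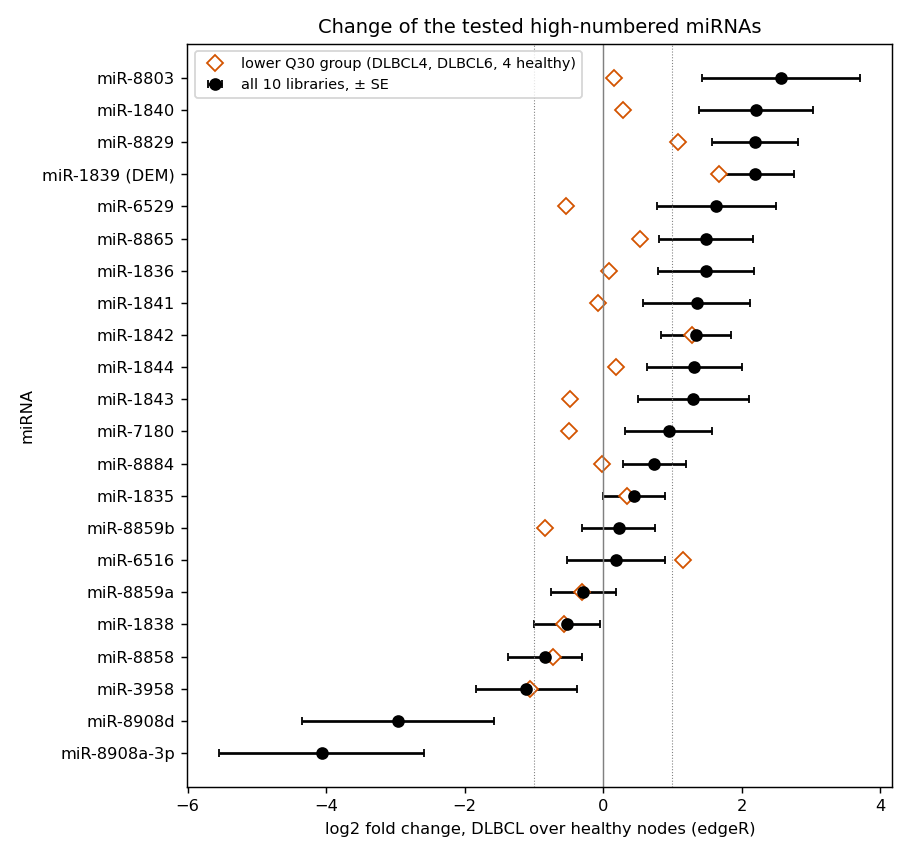
Log2FC of the 22 tested high-numbered miRNAs, DLBCL over healthy nodes, with all 10 libraries (black, with the SE of the edgeR fit) and within the lower Q30 group (open diamonds, left out for the miR-8908 pair because DLBCL4 and DLBCL6 held at most 1 read of it). Dotted lines mark a fold change of 2. For miR-1841, miR-1843, miR-6529, miR-7180, miR-8859b and miR-8884 the black point lies right of 0 and the diamond left of it, while for miR-1842 both lie at nearly the same place.

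**Figure D3:**
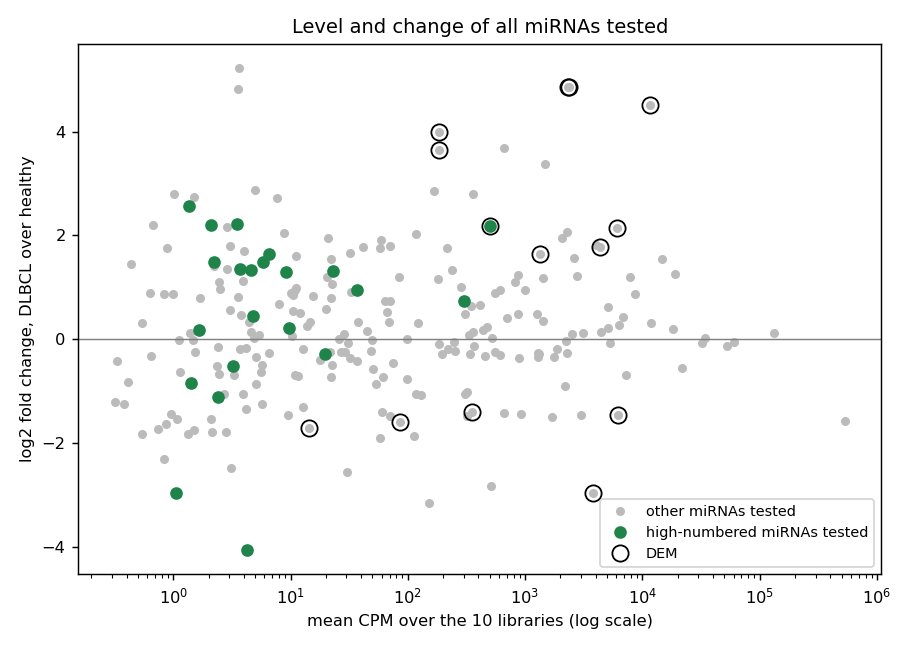
Mean CPM over the 10 libraries (log scale) against the log2FC in DLBCL for the 247 miRNAs tested, with the 22 high-numbered ones in green and the 14 DEMs circled. miR-1839 is the circled green point, and most other green points lie under 10 CPM.

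miR-1839 was the most abundant of the 47 and the single DEM. Its gene lies within the span of WHAMM, which encodes an activator of actin assembly, and in other mammals miR-1839 is known as a fragment of the small Cajal body RNA SCARNA15. The level was 869, 244, 1785, 418, 453 and 608 CPM in DLBCL1 to DLBCL6 and 173, 156, 202 and 110.2 CPM in Healthy2 to Healthy5. Every DLBCL library stood above every healthy one, and DLBCL3 was the highest. Means of 730 ± 558 CPM (SD, n = 6) for DLBCL and 160 ± 38.4 CPM (SD, n = 4) for healthy nodes gave a log2FC of 2.19 (SE 0.57, edgeR adjusted p = 0.0397). The positive sign was found in all 22 alternative fits, with values from 1.66 to 2.83, and the call held in 14 of them. The log2FC was 1.67 within the lower Q30 group (edgeR adjusted p = 0.021) and 1.74 without DLBCL3 (adjusted p = 0.0298). Among the other 8, it was lost without DLBCL1 (2.12, edgeR adjusted p = 0.0866), without any 1 of the 4 healthy libraries (2.01 to 2.31, adjusted p = 0.126 to 0.160), with DESeq2's size factors and with the Q30 group as a covariate (1.68, adjusted p = 0.174).

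The CPM values of the groups did not overlap for 3 of the 22, all higher in DLBCL, against 13.0% of all 247, or 6.88% in this direction and 6.07% in the other. Beside miR-1839 these were miR-1842 and miR-8829, both scarce. miR-1842 was at 8.03, 5.75, 6.97, 5.29, 4.04 and 6.57 CPM in DLBCL1 to DLBCL6 and at 0.967, 3.27, 2.05 and 3.34 CPM in the healthy libraries. The DLBCL libraries lay close together, and Healthy2, with 17 reads, was the lowest. The log2FC of 1.34 (SE 0.51, edgeR adjusted p = 0.117) stayed short of a DEM. It was nearly the same within the lower Q30 group, at 1.28, and between 1.10 and 1.56 in the fits that dropped 1 library. In DESeq2 and in limma-voom with quality weights per library, miR-1842 was a DEM, at adjusted p-values of 0.0217 and 0.0325.

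miR-8829, whose gene lies within the span of TCF20, encoding a transcriptional coregulator, was at 3.51, 1.88, 4.52, 1.73, 5.60 and 1.11 CPM in DLBCL1 to DLBCL6. The healthy libraries held 0.455, 0.844, 0.788 and 0.557 CPM, which are 8 to 23 reads each. DLBCL5 and DLBCL3 were the highest, and DLBCL6 came nearest to the healthy range. The log2FC was 2.20 (SE 0.62), and the adjusted p of 0.0575 from edgeR lay just above the threshold. It was called in 8 of 21 alternative fits, among them DESeq2 (adjusted p = 0.00398), limma-voom and the edgeR fits without DLBCL3, DLBCL4 or DLBCL6. Within the lower Q30 group its log2FC was 1.08 (edgeR adjusted p = 0.335).

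miR-8884, the other abundant miRNA of the set, has its gene within the span of SEL1L, which encodes an adaptor of protein degradation at the endoplasmic reticulum. It was at 365, 201, 785, 228, 361 and 197 CPM in DLBCL1 to DLBCL6 and at 231, 212, 233 and 178 CPM in healthy nodes. The healthy libraries lay close together, and DLBCL2, DLBCL4 and DLBCL6 fell within their range. Means of 356 ± 224 CPM (SD, n = 6) for DLBCL and 213 ± 25.4 CPM (SD, n = 4) for healthy nodes gave a log2FC of 0.74 (SE 0.46, edgeR adjusted p = 0.290), which was -0.01 within the lower Q30 group.

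miR-7180 and miR-1844 were also highest in DLBCL3, at lower levels. Their genes lie within the spans of EFCAB2 and of DYNLL2, a dynein light chain gene. miR-7180 was at 52.4, 22.4, 111, 16.6, 55.5 and 17.3 CPM in DLBCL1 to DLBCL6 and at 17.9, 33.9, 32.2 and 11.1 CPM in healthy nodes. The groups overlapped widely. Its log2FC was 0.95 (SE 0.63, edgeR adjusted p = 0.326), and it was -0.50 with the lower Q30 libraries alone. miR-1844 was at 22.3, 12.5, 101, 10.8, 19.0 and 17.2 CPM and at 14.7, 11.5, 15.2 and 7.48 CPM in the same order. DLBCL3 held more than any other library. The log2FC of 1.32 (SE 0.69, edgeR adjusted p = 0.232) was 0.46 without DLBCL3.

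miR-8859a and miR-8859b form a family of 2 whose genes are neighbours in the annotation, within the span of the potassium channel gene KCNQ1. miR-8859a was at 15.2, 26.0, 5.55, 18.2, 26.1 and 17.8 CPM in DLBCL1 to DLBCL6 and at 17.2, 22.6, 26.5 and 22.3 CPM in healthy nodes. Apart from DLBCL3, which was the lowest, all libraries lay in 1 range. miR-8859b was at 11.6, 11.6, 6.68, 4.06, 22.5 and 5.90 CPM and at 9.33, 10.2, 8.56 and 7.48 CPM. The log2FCs were -0.29 (SE 0.47) and 0.23 (SE 0.53), and neither passed the test, with adjusted p-values of 0.733 and 0.825 from edgeR. The ratio of the reads of miR-8859a to those of miR-8859b ran from 0.83 in DLBCL3 to 4.49 in DLBCL4 and lay between these values in healthy nodes. Near-identical sequences of a family could share reads in the authors' counting, so the split within the pair is uncertain.

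**Figure D4:**
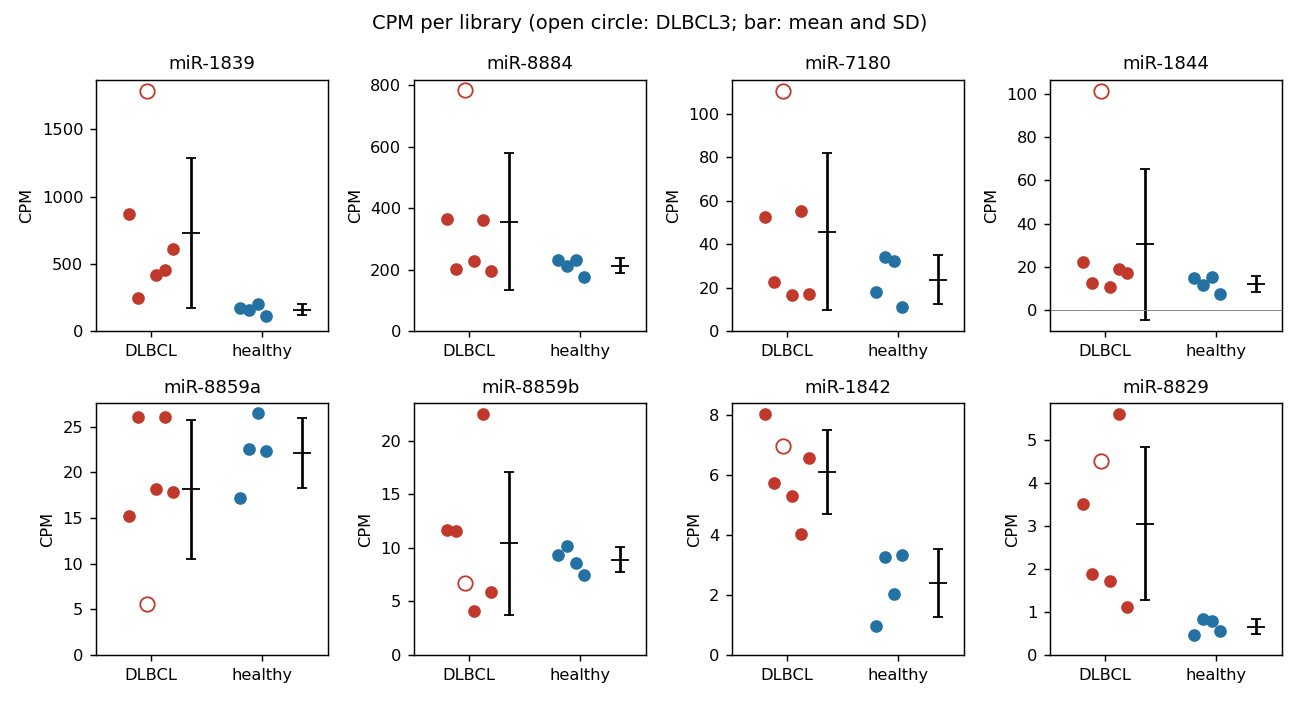
CPM per library (points) with the mean and SD of each group (bars) for the 5 most abundant high-numbered miRNAs, miR-8859b, and both other miRNAs whose groups do not overlap. The open circle is DLBCL3, the highest library for miR-1839, miR-8884, miR-7180 and miR-1844 and the lowest for miR-8859a.

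The other tested miRNAs from miR-1835 to miR-1843 lay between 0.776 and 43.1 CPM in every DLBCL library. miR-1840 ran from 0.776 to 13.1 CPM in DLBCL (median 3.45) and from 0.586 to 1.71 CPM in healthy nodes, a log2FC of 2.21 (SE 0.82, edgeR adjusted p = 0.114). Its highest libraries were DLBCL5, DLBCL3 and DLBCL1, and DESeq2 called it (adjusted p = 0.0259). With the lower Q30 libraries alone, it was 0.29. miR-1836, within the span of the chaperonin gene TCP1, ran from 2.85 to 19.7 CPM (median 4.47) against 1.38 to 3.73 CPM, with a log2FC of 1.49 (edgeR adjusted p = 0.183). DLBCL4 and DLBCL6 alone lay within the healthy range, and the log2FC with these 2 as the only DLBCL libraries was 0.08.

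miR-1843, within the span of the ubiquitin ligase gene COP1, ran from 2.93 to 43.1 CPM in DLBCL (median 6.26) and from 2.35 to 7.15 CPM in healthy nodes. The top value was in DLBCL5, and the log2FC of 1.30 became 0.26 without that library. miR-1841, within a long noncoding RNA gene, ran from 0.917 to 15.2 CPM (median 2.55) against 1.03 to 2.84 CPM, with a log2FC of 1.35, which was 0.60 without DLBCL3. For both, the adjusted p from edgeR was above 0.25 and the groups overlapped.

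Among the remaining low-level miRNAs, miR-1835 and miR-1838 had the smaller estimates. miR-1835 lies within the span of RAC2, a GTPase gene of blood cells, and ran from 3.18 to 6.81 CPM in DLBCL against 2.67 to 4.81 CPM, with a log2FC of 0.44. miR-1838 lies within the span of the signalling adaptor gene GAB2 and ran from 1.59 to 5.02 CPM against 2.90 to 5.51 CPM, with a log2FC of -0.52, a sign that turned when the libraries were scaled to total miRNA reads. The adjusted p-values from edgeR were 0.542 and 0.498.

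From 2000 upward, 3 more miRNAs had log2FCs over 1 without passing the test. miR-6529, within the span of the kinase gene GSK3B, ran from 1.52 to 30.8 CPM in DLBCL (median 3.61) against 2.31 to 3.94 CPM, a log2FC of 1.64 (edgeR adjusted p = 0.232) that was 0.69 without DLBCL3 and -0.54 with the lower Q30 libraries alone. miR-8803, within the span of the CREB coactivator gene CRTC1, had the largest positive value of the 22, at 2.58 (SE 1.14, edgeR adjusted p = 0.164). It rested on 1 library, since DLBCL3 held 9.51 CPM while the other DLBCL libraries held 0.297 to 1.11 CPM and the healthy ones 0.176 to 0.569 CPM, and without DLBCL3 it was 0.66. miR-8865 ran from 0.988 to 7.39 CPM against 0.557 to 1.84 CPM, with a log2FC of 1.49 (edgeR adjusted p = 0.175) that was 1.02 without DLBCL3 and 0.53 with the lower Q30 libraries alone.

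Lower mean levels in DLBCL were measured for 6 of the 22, none of them a DEM, and 2 of the 6, miR-1838 and miR-8859a, had positive log2FCs when scaled to total miRNA reads. With that scaling, 2 others were near 0, miR-3958 at -0.14 and miR-8858 at -0.03. miR-3958, whose gene stands among the miRNA genes of the imprinted DLK1-DIO3 region, next to genes such as MIR495 and MIR381, ran from 0.188 to 4.38 CPM in DLBCL (median 0.940) and from 2.10 to 5.69 CPM in healthy nodes. Its log2FC was -1.11 (SE 0.73, edgeR adjusted p = 0.321), with DLBCL3 the lowest library. miR-8858 ran from 0.471 to 1.51 CPM against 1.08 to 3.01 CPM, with a log2FC of -0.84. For miR-6516 the log2FC was 0.19, with 0.377 to 1.49 CPM in 5 DLBCL libraries, 5.43 CPM in DLBCL4 and 0.853 to 2.05 CPM in healthy nodes.

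The largest differences toward healthy nodes were in the miR-8908 family, which has 6 mature names in the table: miR-8908a-3p, miR-8908a-5p, miR-8908b, miR-8908c, miR-8908d and miR-8908f. The annotation of UU_Cfam_GSD_1.0 places 17 miRNA genes between SLITRK2 and FMR1, of which 11 are MIR8908 genes, and 4 of these encode miR-8908a and 3 miR-8908d. The other 6 are the genes of miR-506, miR-507a, miR-507b, miR-508a, miR-508b and miR-514, a fast-evolving group known in mammals for expression in the testis. Summed over the 6 names, the reads numbered 468, 1, 401 and 766 in Healthy2 to Healthy5 and 10, 42, 70, 1, 0 and 0 in DLBCL1 to DLBCL6. The healthy dogs were split, as 3 of the 4 had 401 to 766 reads and Healthy3 had a single one, which lies below DLBCL1, DLBCL2 and DLBCL3. As summed CPM, the family stood at 26.6, 0.0367, 21.1 and 22.5 in Healthy2 to Healthy5 and at most at 3.29, in DLBCL3.

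Within the family, miR-8908a-3p led, with 284, 0, 233 and 363 reads in Healthy2 to Healthy5 and 8, 23, 40, 1, 0 and 0 reads in DLBCL1 to DLBCL6. In the libraries with at least 10 reads of miR-8908a, the 3p arm made up 76.3% to 100% of them. Its log2FC of -4.07 (SE 1.47, edgeR adjusted p = 0.113) was the lowest of all 247 miRNAs tested, and miR-8908d was at -2.96 (SE 1.39, adjusted p = 0.183). Without DLBCL3, the DLBCL library with the most reads of both, they were -4.92 and -4.13 (adjusted p = 0.0709 and 0.0841). Neither was a DEM, and Healthy3 was among the low libraries. Without Healthy3, they were -4.36 and -3.25 (edgeR adjusted p = 0.118 and 0.191), so neither was a DEM there either. The reads of miR-8908a-5p (36, 0, 44 and 113 in healthy nodes, at most 2 in a DLBCL library) and miR-8908b (77, 1, 76 and 177, at most 4) followed the same dogs. Both were removed by the filter. Both were called lower in DLBCL by DESeq2, by edgeR without the filter and by edgeR without Healthy3. The fit without Healthy3 dropped the healthy dog with the fewest reads of both. They passed its filter through the remaining healthy libraries, where they were high, so that call is not separate support. Within the lower Q30 group, where both also passed through the healthy libraries, edgeR called them along with miR-8908a-3p and miR-8908d. The DLBCL side of that group was DLBCL4 and DLBCL6, which held 1 and 0 reads of the whole family. The study lists these dogs (its L4 and L6) as male and all healthy dogs as female. Among the other DLBCL dogs, DLBCL1 and DLBCL2 (10 and 42 reads of the family) were male and DLBCL3 and DLBCL5 (70 and 0) female. Healthy3, also female, held 1 read of the family, and the part of sex was not tested. Related sequences and several gene copies mean that reads could be split among these names.

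**Figure D5:**
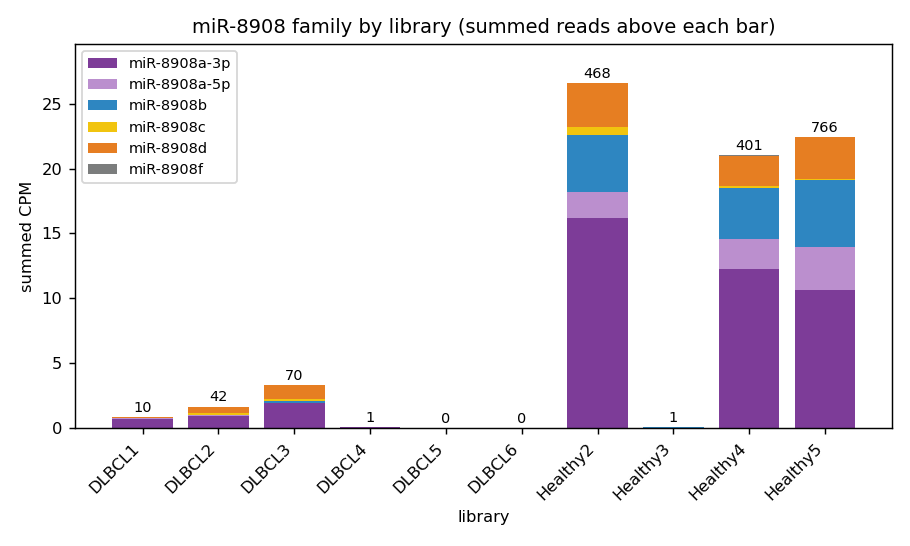
Summed CPM of the 6 miR-8908 names per library, stacked by name, with the summed reads above each bar. Healthy2, Healthy4 and Healthy5 stand between 21.1 and 26.6 CPM, while Healthy3 has 1 read and no DLBCL library exceeds 3.29 CPM.

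Differences among the dogs of 1 group were wide. The coefficient of variation of CPM had a median over the 22 of 82.9% in DLBCL and 38.5% in healthy nodes, against 69.2% and 36.8% over all 247, and it was larger in DLBCL for 20 of the 22 (all but miR-1842 and miR-8858), against 82.6% of all 247. DLBCL3 was the highest library for 8 of the 22, namely miR-1839, miR-1841, miR-1844, miR-6529, miR-7180, miR-8803, miR-8865 and miR-8884, while it was the highest for 22.7% of all miRNAs tested. DLBCL5 was the highest for 5 more. The sum of the red blood cell miRNAs was also highest in DLBCL3, at 48886 CPM, and it was 26508 to 37371 CPM in the other 3 DLBCL libraries of the higher Q30 group and 5740 and 9761 CPM in DLBCL4 and DLBCL6. Red cell miRNAs and the Q30 group thus moved together across the DLBCL libraries, and their part in the values above was not tested. Sums were also taken for exocrine pancreas (17.5 to 662 CPM in DLBCL, 914 to 1950 CPM in healthy nodes) and epithelium (19.0 to 203 and 22.4 to 37.0). Those for muscle were 678 to 3238 and 609 to 771, and those for stroma 18704 to 70595 and 26787 to 55170. None of their tested markers was a DEM, but only 4 of 8 epithelium and 4 of 8 muscle markers were tested, against 3 of 3 for pancreas and 4 of 4 for stroma.

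The 25 untested miRNAs were mostly near the level of single reads. For 18 of them, every library held fewer than 10 reads. The 7 that reached 10 reads were miR-1837, miR-8872, miR-8876, miR-8903, miR-8908a-5p, miR-8908b and miR-8908c, and only miR-8903 and the miR-8908 pair reached 20. miR-8903 lies within the span of DROSHA, the nuclease that starts the maturation of miRNAs, and had 4, 13, 10, 7, 2 and 23 reads in DLBCL1 to DLBCL6 and 4, 7, 0 and 5 in healthy nodes. miR-1837 had 15 reads in Healthy2 and at most 2 in any other library.

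By annotation, 46 of the 47 matched a miRNA gene by name, all but miR-8835. The genes of 20 of the 47 lay within the span of a protein-coding gene, among them 13 of the 22 tested. The levels of these host genes were not measured here.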

How the data were processed

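After trimming, the authors mapped the reads with Bowtie 0.12.9 and took miRBase 20, with a modified miRDeep2, as the reference for known miRNAs. They also removed reads of repeats and of ribosomal, transfer, small nuclear and small nucleolar RNA. Which of these steps came first is not stated in the paper. The submitters' processing notes name CanFam3.1 and DESeq2 1.12.0. The deposited counts are raw reads per miRNA, and the deposited TPM values are the same counts scaled to a library total of 1000000, within 4.55e-05.

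The counts were analysed with edgeR 4.0.16 in R 4.3.3 (TMM, default filter by group, quasi-likelihood test over all 247 miRNAs left). CPM uses the TMM-adjusted library sizes. DESeq2 1.42.0, limma 3.58.1 (voom, and trend on log2 TPM with 1 added), other scalings and filters, the Q30 group and each library left out were alternatives. Depth was 10686441 to 34709421 miRNA reads, and libraries of 1 group differed beyond counting noise (chi-squared over its degrees of freedom at least 2115).

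The members and lists were chosen with earlier results of these data known. Values in every library are given for DEMs, for members whose groups do not overlap, for the 5 most abundant and for families, and ranges for the rest. Gene neighbours come from RefSeq's UU_Cfam_GSD_1.0, by name only. No table used here holds the mature sequences, so none are given.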

Additional observations from a re-analysis of the deposited data

Results flagged for a closer look

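For 8 of the 22 tested miRNAs, 1 DLBCL library stood apart from the other 5, with a gap to its nearest neighbour that was large against the whole range of the group (Dixon's criterion at the 95% level). For independent groups of normally distributed values, the criterion flags about 1 in 20 by chance. The 44 groups examined (22 miRNAs in 2 conditions) hold untransformed CPM and share their libraries, so that rate need not hold here. No healthy group was flagged. In 6 of the 8 cases the library was DLBCL3. It held 785 CPM of miR-8884, where the other DLBCL libraries held 197 to 365 CPM, and 101 CPM of miR-1844, where the others held 10.8 to 22.3 CPM. miR-6529 stood at 30.8 CPM in DLBCL3 against 1.52 to 11.8 CPM in the others. The lower-level miRNAs with DLBCL3 on top were miR-1841 at 15.2 CPM, miR-8803 at 9.51 CPM and miR-8865 at 7.39 CPM. DLBCL5 stood apart with 43.1 CPM of miR-1843, where the others held 2.93 to 9.79 CPM, and DLBCL4 with 5.43 CPM of miR-6516, where the others held 0.377 to 1.49 CPM.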

How the results depend on the processing

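Of the 47 miRNAs, 1 was called by edgeR, and the number was 0 with DESeq2's size factors, with the Q30 group as a covariate and with the replicate block, 3 with total miRNA reads, without a filter, with limma-voom and with limma trend, 5 within the lower Q30 group, 6 with DESeq2 and 7 without its Cook's distance filter. Higher calls numbered 1 without a filter and within the lower Q30 group, 3 with total reads, limma-voom and limma trend, 4 with DESeq2, 5 without its Cook's filter and 0 in the first 3 settings. Lower calls numbered 2 without a filter and with DESeq2, with or without its Cook's filter, and 4 within the lower Q30 group. With a library left out, 0 to 2 were called (0 to 2 higher, 0 to 2 lower): 0 without DLBCL1, Healthy2, Healthy4 or Healthy5, and 2 without DLBCL3, DLBCL4, DLBCL6 or Healthy3. Calls among all miRNAs went from 14 to 8 with DESeq2's size factors, 23 with total reads, 7 with the Q30 covariate, 46 within the lower Q30 group and with limma-voom, 1 with the replicate block, 45 with DESeq2 and 49 without its Cook's filter, and to 3, 22 and 23 without DLBCL1, DLBCL3 and DLBCL4 and 2, 5, 1 and 6 without Healthy2 to Healthy5. The cause was not tested. Scaling to total reads shifted the median log2FC over all tested miRNAs from 0.13 to 0.82.

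The replicate numbers name different dogs and do not pair them, as the deviations of same-numbered libraries had correlations of 0.19, 0.11, -0.33 and -0.40, and number 2 alone was its own best match. The fit with the replicate block left 0 members called and 1 miRNA in all. It used only the libraries numbered 2 to 5 and so also dropped DLBCL1 and DLBCL6. The effect of the block alone was not separated from that.

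Of the 22 tested, 13 kept their direction in every alternative fitted. All healthy libraries were in the lower Q30 group, so the log2FC of both Q30 settings compares DLBCL4 and DLBCL6 with them. These settings are not separate checks. Signs turned with the Q30 covariate and within the lower Q30 group for miR-1841 (-0.066, -0.070), miR-1843 (-0.47, -0.48), miR-6529 (-0.53, -0.54), miR-7180 (-0.49, -0.50), miR-8859b (-0.84 in both) and miR-8884 (-0.0040, -0.015), and with total reads and limma trend for miR-1838 (0.073, 0.083) and miR-8859a (0.46, 0.28). miR-8859b also turned with at least 10 reads in every library (-0.026) and without DLBCL5 (-0.16, up to 0.43 without DLBCL4), and miR-6516 with the replicate block (-0.20), limma-voom (-0.32), without DLBCL4 (-0.59, up to 0.42 without DLBCL3) and without Healthy2 (-0.019). miR-1839 lost its call with DESeq2's size factors (2.32), the Q30 covariate (1.68) and the replicate block (1.74).

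Detection in DLBCL went from 44 to 25 with at least 10 reads and 28 at the floor of the shallowest library, while leaving out a library gave 41 to 44 in DLBCL, 36 to 39 in healthy nodes and 20 or 21 in every library. The shares of miRNA reads, 0.143% and 0.0371%, became 0.209% and 0.0957% without miR-148a in the total and 0.0587% and 0.0252% without miR-1839, and were 0.124% to 0.157% and 0.0351% to 0.0406% with a library left out. Depth limits the 24 miRNAs under 1 CPM most.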

Other observations

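The miRNAs whose genes stand beside the miR-8908 genes between SLITRK2 and FMR1 were looked at after their values were seen. The reads of miR-506, miR-507a, miR-507b, miR-508a, miR-508b and miR-514, summed, numbered 701, 22, 13, 737, 13 and 134 in DLBCL1 to DLBCL6 and 3, 14, 11 and 20 in Healthy2 to Healthy5. They were highest in DLBCL1 and DLBCL4, where the miR-8908 family had 10 reads and 1 read. In the healthy libraries they were 3 to 20, and 3 of these had 401 to 766 reads of the miR-8908 family. With the study's dogs L1 to L6 taken as DLBCL1 to DLBCL6, DLBCL1, DLBCL2, DLBCL4 and DLBCL6 came from males. DLBCL3, DLBCL5 and all healthy libraries came from females. The summed reads were thus 22 to 737 in males and 3 to 20 in females. As summed CPM, male DLBCL2 (0.860) and female DLBCL5 (0.847) were nearly equal. The study lists the males L1, L2 and L6 as castrated and L4 as intact, and the part of sex was not tested. The log2FC of miR-508b was 5.23 (SE 1.62, edgeR adjusted p = 0.0806) and that of miR-507a 4.82 (SE 1.69, edgeR adjusted p = 0.109), and neither was a DEM. The miRNAs with the lowest and the highest log2FC of all 247 tested, miR-8908a-3p and miR-508b, thus have genes in the same interval.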
